A study of Mus musculus with 6 samples.

Results

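The 43 genes described here encode DNA repair and damage checkpoint proteins. They were taken by gene symbol from a table of 25124 genes measured in RAW264.7 cells, a mouse macrophage line, and all 43 were present and expressed highly enough to be tested. The cells had been given a plasmid encoding the Cas9 nuclease but no guide RNA, as controls for cells lacking E4BP4, so both groups carry that plasmid and neither carries a targeted deletion. M1 cells (3 samples) were treated with 100 ng/ml LPS, a component of the bacterial outer membrane, together with 50 ng/ml interferon-γ, a T cell cytokine, and M0 cells (3 samples) were left without either. The medium held 25 mM glucose in both groups, and how long treatment lasted is not stated in the labels. The labels do not say whether the samples were separate cultures or how many clones made up the line, so the p-values speak only for the spread among these 6 samples, part or all of which may be technical. The comparison asks how the transcripts of the repair and checkpoint machinery differ between the treated and the untreated state.

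Cells meet DNA damage with kinases that sense it and with separate repair routes for separate lesions. The kinase ATM responds to double-strand breaks, which the MRN complex detects, and ATR responds to exposed single-stranded DNA at stalled replication forks. Their signals pass to the kinases CHK2 and CHK1, which hold the cell cycle. Breaks are then rejoined directly by end joining or copied from the sister chromatid by homologous recombination, crosslinks are handled by the Fanconi anaemia proteins, and altered or mispaired bases by the excision and mismatch pathways. Homologous recombination and mismatch repair work mostly beside DNA replication, and activated macrophages make nitric oxide and superoxide, which can damage bases.

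RNA levels are given in TPM, in which reads are corrected for the length of the transcript and the size of the library, so that levels of different genes can be set side by side. Between 15615639 and 20283180 reads per library fell in genes. The member with the fewest reads in any library was Ung, with 42, and 5 members had fewer than 100 in their lowest library. The macrophage genes Csf1r, Cd68, Itgam, Lyz2 and Spi1 were expressed in both groups, whereas Adgre1, which encodes F4/80, was low in M0 at 2.73 ± 0.505 TPM and stood at 67.6 ± 1.13 TPM in M1 (mean ± SD, n = 3 here and throughout). All 10 listed M1 markers were higher in M1. The 10 macrophage markers summed to 4008 to 4371 TPM in the M0 samples and 3719 to 3792 TPM in the M1 samples. Summed markers of T, B and epithelial cells reached at most 0.205, 0.303 and 0.172 TPM in any library, and those of fibroblasts and endothelial cells 1.52 and 1.16 TPM. In bulk RNA, fewer cells of a kind and less RNA per cell cannot be told apart.

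Most of the repair and checkpoint genes were lower in M1. On the TPM scale 35 of the 43 fell and 3 rose (limma's moderated test on log2(TPM + 1), with p adjusted by Benjamini-Hochberg over 11297 tested genes and called under 0.05), which is 81.4% and 6.98% of them. Over all tested genes 61.5% were called lower and 18.7% higher, 80.2% in either direction. The 3 that rose were Atm, Nbn and Fancc, and the 5 without a call were Atr, Lig4, Ercc1, Ercc3 and Ddb2. In 34 members every M1 sample lay below every M0 sample, and in 3 every M1 sample lay above, against 61.8% and 19.6% of all tested genes. Of the 43, 17 fell by at least 2-fold in mean TPM, and none rose by as much, where 16.4% and 7.2% of tested genes did. The median log2 change was -0.82 for the 43 genes and -0.31 for all tested genes.

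The TPM scale placed the typical gene below its M0 level, so changes were also fitted after rescaling each library by its median-of-ratios factor. With this factor the median of all tested genes is 0.018. The plot of fitted log2 changes shows both scales for all 43 genes, but the text gives some falls on the TPM scale only. Those falls were smaller after rescaling. Ogg1 and Palb2 each fell 1.58-fold in place of 2.03-fold, Xrcc6 1.54-fold in place of 1.99-fold, and Apex1 1.23-fold in place of 1.58-fold. After this rescaling 28 of the 43 were lower and 8 higher, which is 65.1% and 18.6%, where 35.4% and 38.1% of all tested genes were called lower and higher, 73.5% in either direction. The median of the 43 was then -0.48. All 28 had also fallen on the TPM scale, and all 28 were called lower in the authors' deposited table, where the background was 32.2% lower and 35.6% higher, or 67.8% in all, of 10773 genes. The same 28 were called lower with each sample left out in turn on both scales. Of the other 7 that fell on TPM, Rad51b, Msh3, Xpa, Ercc2, Ercc4 and Ddb1 had no call after rescaling and Lig3 was called higher. Atm, Nbn and Fancc were higher on both scales.

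**Figure D1:**
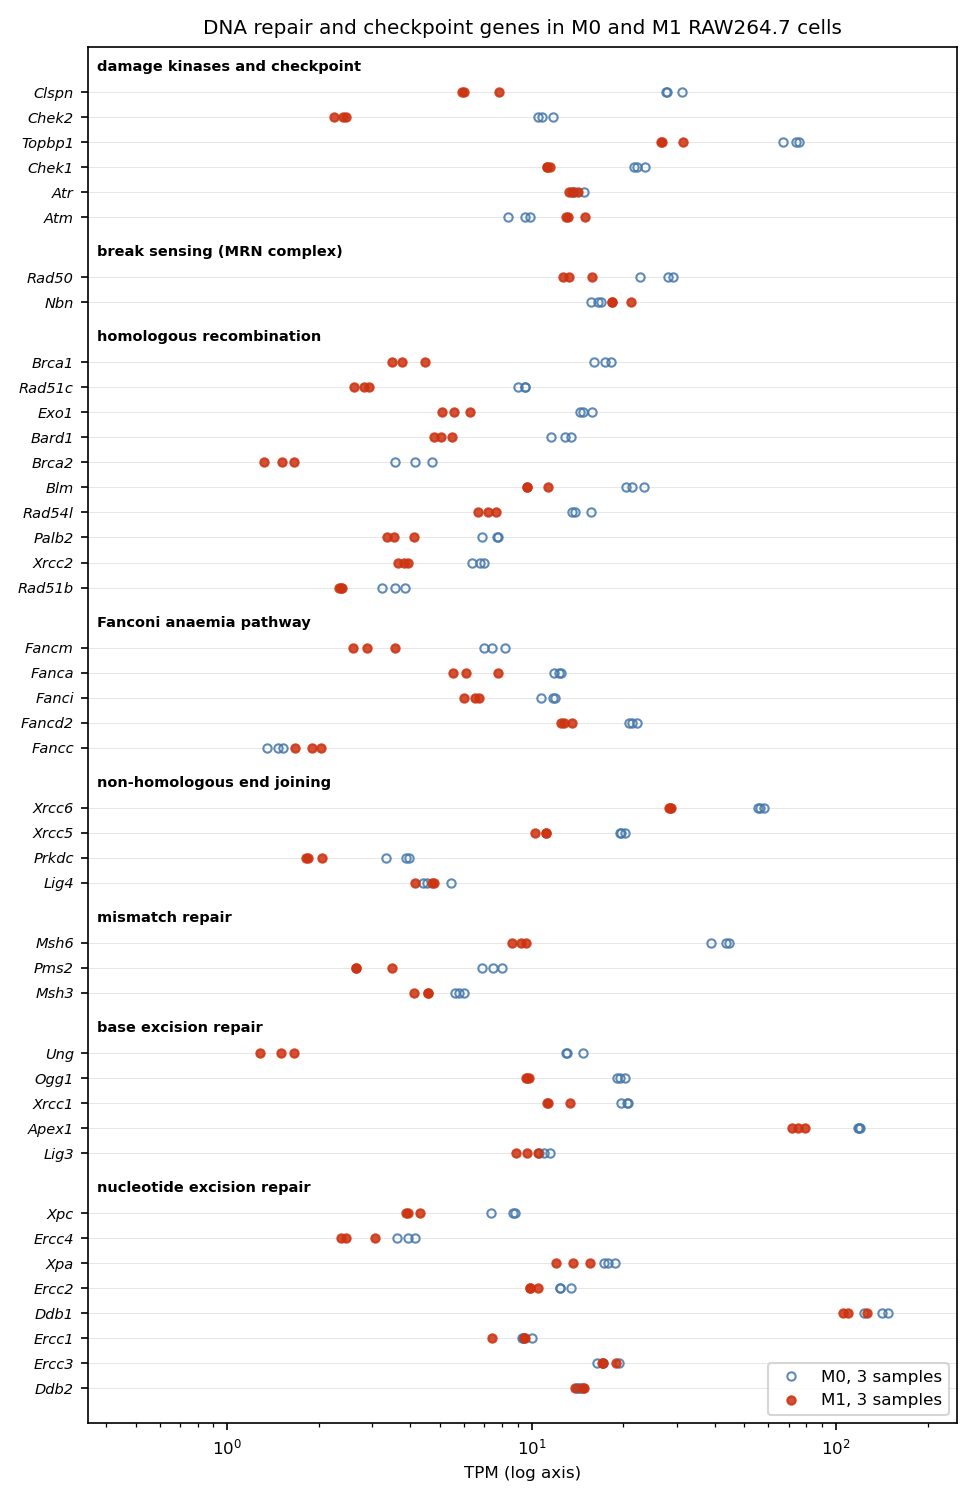
Level of each of the 43 genes in each sample, in TPM on a log axis, grouped by repair route; open circles are the 3 M0 samples and filled circles the 3 M1 samples. The M1 samples of Ung lie between 1.29 and 1.65 TPM and its M0 samples between 12.9 and 14.8 TPM, and Atm, Nbn and Fancc are the genes whose M1 samples lie to the right of all their M0 samples.

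The checkpoint genes changed in both directions. Atm, which encodes the kinase that answers double-strand breaks (NM_007499, mm10 chromosome 9, 53437122 to 53536671), had 8.39, 9.90 and 9.54 TPM in the 3 M0 samples and 13.2, 12.9 and 15.0 TPM in the 3 M1 samples. All M1 samples were above all M0 samples, and Atm rose 1.48-fold (log2 change 0.52, SE 0.08, adjusted p = 8.3e-05, and 0.85 after rescaling). Chek2, which encodes the kinase that ATM activates (NM_001363308, chromosome 5, 110839983 to 110874140), had 11.8, 10.8 and 10.5 TPM in M0 and 2.46, 2.40 and 2.25 TPM in M1. It fell 4.66-fold with no overlap (log2 change -1.84, SE 0.07, adjusted p = 8.1e-10, and -1.54 after rescaling). The transcripts of this kinase pair changed in opposite directions on both scales.

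On the ATR side the kinase itself had no call on the TPM scale, while Clspn, Topbp1 and Chek1 fell. Atr was at 14.1 ± 0.658 TPM in M0 against 13.7 ± 0.491 TPM in M1, with overlapping samples (log2 change -0.04, 95% confidence interval -0.17 to 0.09), and was called higher after rescaling (0.30, adjusted p = 0.00044). Clspn encodes claspin, the adaptor that lets ATR reach CHK1 (NM_175554, chromosome 4, 126556980 to 126593903). It had 27.7, 31.1 and 27.9 TPM in M0 against 5.98, 5.92 and 7.84 TPM in M1, a 4.39-fold fall (log2 change -1.99, SE 0.10, adjusted p = 7.9e-09). Topbp1, the activator of ATR, fell 2.55-fold from 72.2 ± 4.75 to 28.3 ± 2.66 TPM. Chek1, the kinase downstream, fell 1.99-fold from 22.5 ± 0.96 to 11.3 ± 0.128 TPM. After rescaling these 3 were still lower, with log2 changes of -1.65, -0.97 and -0.59. Of 14 other checkpoint genes, not among the 43, 12 fell and 1 rose on TPM (85.7% and 7.14%, against 61.5% and 18.7% of all tested genes). After rescaling 6 were lower and 4 higher (42.9% and 28.6%, against 35.4% and 38.1%). The gene that rose was Hus1 (log2 change 0.23, and 0.56 after rescaling). Atrip fell slightly (-0.18) and had no call after rescaling (0.14, adjusted p = 0.088).

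The MRN complex, which binds broken ends, was represented by Rad50 and Nbn, and these differed in direction. Rad50, the structural ATPase of the complex, had 22.7, 29.1 and 28.1 TPM in M0 and 12.7, 13.2 and 15.8 TPM in M1 and fell 1.91-fold (log2 change -0.89, SE 0.10, adjusted p = 2.0e-05, and -0.54 after rescaling). Nbn, which encodes the subunit that recruits ATM (NM_013752, chromosome 4, 15957967 to 15992589), had 17.0, 15.7 and 16.5 TPM in M0 and 18.4, 18.4 and 21.3 TPM in M1. Its samples did not overlap, although the gap between the groups was small, and it rose 1.18-fold (log2 change 0.22, SE 0.07, adjusted p = 0.0099, and 0.57 after rescaling). Mre11a, which encodes the nuclease of the same complex and is not among the 43, had 15.4 ± 0.851 and 12.4 ± 0.949 TPM (log2 change -0.30, and 0.041 after rescaling with adjusted p = 0.55).

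All 10 homologous recombination genes fell, and 9 of them (90.0%) stayed lower after rescaling. Of all tested genes 61.5% fell on the TPM scale and 35.4% were lower after rescaling. Brca1, a ubiquitin ligase that directs breaks to recombination (NM_009764, chromosome 11, 101488764 to 101551955), had 16.1, 18.2 and 17.4 TPM in M0 and 3.76, 3.47 and 4.46 TPM in M1. That is a 4.42-fold fall with widely separated groups (log2 change -1.90, SE 0.08, adjusted p = 2.5e-09, and -1.58 after rescaling). Its obligate partner Bard1 fell 2.48-fold, from 12.6 ± 0.963 to 5.10 ± 0.352 TPM. Palb2, which bridges BRCA1 and BRCA2, fell 2.03-fold from 7.45 ± 0.495 to 3.67 ± 0.402 TPM, and Brca2, a mediator of strand exchange, had 3.57, 4.70 and 4.13 TPM in M0 and 1.52, 1.32 and 1.66 TPM in M1, a 2.76-fold fall. Every gene of this BRCA1-BARD1-PALB2-BRCA2 chain was lower, with the largest log2 change in Brca1.

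Rad51c, Xrcc2 and Rad51b, whose proteins work together in recombination, fell by different fitted amounts. Rad51c (NM_053269, chromosome 11, 87376646 to 87404506) had 9.49, 9.54 and 9.02 TPM in M0 and 2.60, 2.82 and 2.92 TPM in M1, a 3.36-fold fall (log2 change -1.45, SE 0.07, adjusted p = 4.6e-09). Xrcc2 fell 1.76-fold from 6.70 ± 0.324 to 3.80 ± 0.145 TPM (log2 change -0.68, SE 0.07). Rad51b fell from 3.54 ± 0.298 to 2.36 ± 0.022 TPM (log2 change -0.43, SE 0.08) and was not called after rescaling (-0.16, adjusted p = 0.066). The differences between these 3 genes were not tested. The end-resecting nuclease Exo1, the helicase Blm and the motor protein Rad54l fell 2.67-fold, 2.13-fold and 2.01-fold, to 5.64 ± 0.604, 10.2 ± 0.958 and 7.16 ± 0.483 TPM.

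In the Fanconi anaemia pathway 4 of 5 genes fell on both scales and 1 rose (80.0% and 20.0%). Of all tested genes 61.5% fell and 18.7% rose on the TPM scale, and 35.4% and 38.1% did so after rescaling. Fancd2, which with its partner FANCI is clamped onto DNA at a crosslink, had 21.4, 22.2 and 20.9 TPM in M0 and 12.5, 12.8 and 13.6 TPM in M1 (log2 change -0.69, SE 0.06, adjusted p = 5.3e-07). Fanci fell 1.79-fold, from 11.5 ± 0.686 to 6.41 ± 0.365 TPM. Fancm, the translocase that finds the lesion, fell 2.50-fold from 7.52 ± 0.596 to 3.01 ± 0.496 TPM, and Fanca, a subunit of the ubiquitin ligase complex, fell 1.90-fold from 12.2 ± 0.373 to 6.45 ± 1.18 TPM. Fancc, another subunit of that complex (NM_001282942, chromosome 13, 63311537 to 63431745), had the lowest M0 level of the 43, at 1.35, 1.47 and 1.53 TPM in M0 and 2.04, 1.67 and 1.90 TPM in M1. The rise of Fancc was 1.29-fold (log2 change 0.23, SE 0.08, adjusted p = 0.023, and 0.46 after rescaling) and came from 186 reads over the M0 libraries and 269 over the M1 libraries. On the TPM scale its call was lost without M0 replicate 1 (adjusted p = 0.089), M0 replicate 2 (0.0505), M1 replicate 1 (0.099) or M1 replicate 3 (0.057), while after rescaling it held without any single sample.

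Among the end joining genes both Ku subunits fell and the dedicated ligase had no call on TPM. Xrcc6, which encodes Ku70 (NM_010247, chromosome 15, 82016369 to 82040084), had 55.6, 58.2 and 56.1 TPM in M0 and 28.6, 28.2 and 28.7 TPM in M1, a 1.99-fold fall with little spread in either group (log2 change -0.96, SE 0.05, adjusted p = 4.4e-09). Xrcc5, which encodes its partner Ku80, fell 1.83-fold from 19.9 ± 0.418 to 10.8 ± 0.531 TPM. Prkdc, the DNA-dependent protein kinase that Ku recruits, fell 1.95-fold from 3.72 ± 0.346 to 1.90 ± 0.128 TPM. Lig4 had 4.78 ± 0.566 and 4.54 ± 0.353 TPM with overlapping samples (log2 change -0.06, adjusted p = 0.56) and was called higher after rescaling (0.24, adjusted p = 0.024).

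Mismatch repair genes fell by unequal amounts. Msh6, which recognises single mispaired bases (NM_010830, chromosome 17, 87975050 to 87990892), had 38.9, 44.4 and 43.6 TPM in M0 and 8.65, 9.20 and 9.60 TPM in M1. It fell 4.62-fold (log2 change -2.09, SE 0.07, adjusted p = 1.3e-10, and -1.75 after rescaling), and no M1 sample came near the M0 samples. Msh3, which recognises larger loops, fell 1.32-fold from 5.80 ± 0.194 to 4.41 ± 0.261 TPM and had no call after rescaling (-0.03, adjusted p = 0.72). Pms2, which nicks the strand to be replaced, fell 2.55-fold from 7.45 ± 0.586 to 2.93 ± 0.485 TPM.

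Base excision repair held the largest fall of the 43. Ung encodes the glycosylase that removes uracil from DNA (NM_011677, chromosome 5, 114131156 to 114139321) and had 13.1, 12.9 and 14.8 TPM in M0 and 1.51, 1.29 and 1.65 TPM in M1. The groups were far apart, a 9.18-fold fall (log2 change -2.56, SE 0.08, adjusted p = 1.7e-10), and rescaling left a 7.13-fold fall. The M1 level rested on 138 reads over 3 libraries. Ogg1, the glycosylase for 8-oxoguanine, fell 2.03-fold from 19.7 ± 0.607 to 9.69 ± 0.121 TPM. Further along the pathway, Xrcc1, the scaffold of strand-break sealing, fell 1.70-fold to 12.0 ± 1.19 TPM and the endonuclease Apex1 fell 1.58-fold from 119 ± 0.944 to 75.4 ± 3.72 TPM, so that Apex1 was still the second most abundant of the 43 in M1. Lig3, the ligase that XRCC1 carries, had 11.0, 11.5 and 10.6 TPM in M0 and 9.68, 8.86 and 10.5 TPM in M1. Its call was the weakest and changed sides, with a log2 change of -0.17 on TPM (adjusted p = 0.045) and 0.16 after rescaling (adjusted p = 0.047). On TPM the Lig3 call was lost without M0 replicate 1, 2 or 3 or M1 replicate 1 or 2, with adjusted p of 0.074, 0.14, 0.053, 0.085 and 0.20.

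Nucleotide excision repair, which cuts out bulky lesions such as those made by ultraviolet light, had a median log2 change of -0.29, which was 0.058 after rescaling. Of its 8 genes 5 fell on the TPM scale (62.5%, against 61.5% of all tested genes). After rescaling 1 was lower and 2 were higher (12.5% and 25.0%, against 35.4% and 38.1%). The gene lower on both scales was Xpc, the damage sensor of the genome-wide branch, with 7.38, 8.84 and 8.71 TPM in M0 and 3.88, 3.94 and 4.29 TPM in M1 (log2 change -0.88, SE 0.08, adjusted p = 1.2e-06). Ddb2, the partner of DDB1 in sensing ultraviolet damage, had 14.3 ± 0.229 and 14.5 ± 0.537 TPM with overlapping samples, no call on TPM (adjusted p = 0.78) and a call after rescaling (0.36, adjusted p = 0.00012). Ddb1, the most abundant of the 43, had 138 ± 13.0 and 114 ± 11.4 TPM and was the fallen gene whose samples overlapped. The helicases of the TFIIH complex, which open the DNA, were Ercc2, with 12.7 ± 0.604 and 10.1 ± 0.358 TPM, and Ercc3, with 17.7 ± 1.51 and 17.7 ± 1.11 TPM. Xpa, which verifies the lesion, had 17.8, 17.3 and 18.7 TPM in M0 and 13.7, 15.6 and 12.0 TPM in M1. The nuclease pair that makes the 5′ cut was Ercc1, at 9.57 ± 0.40 and 8.80 ± 1.21 TPM with no call on either scale, and Ercc4, at 3.90 ± 0.274 and 2.63 ± 0.37 TPM.

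**Figure D2:**
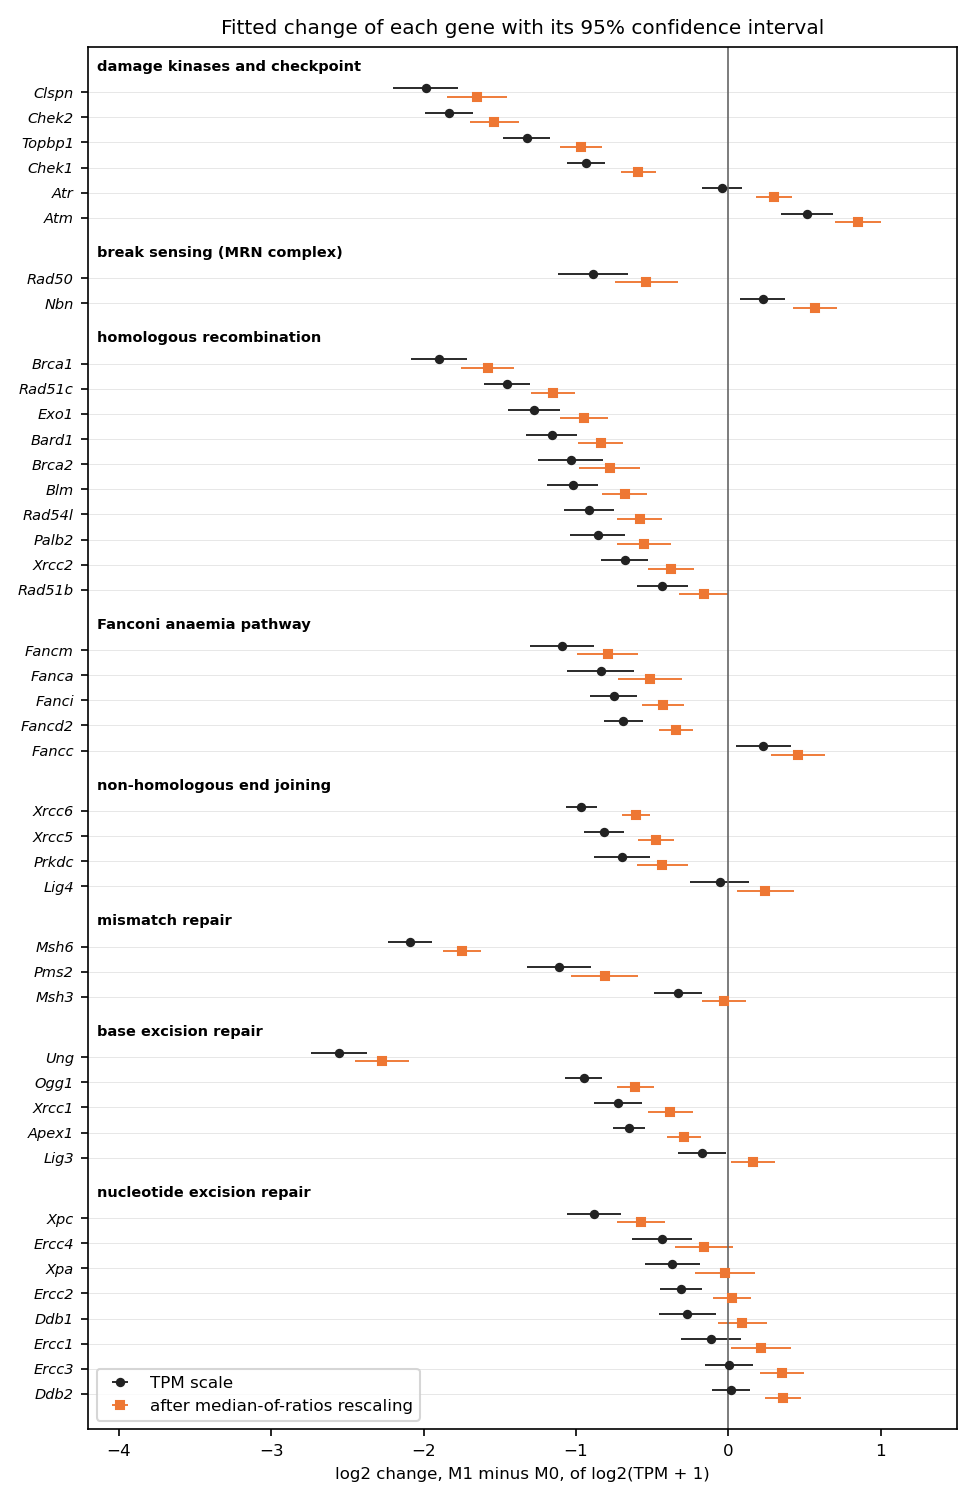
Fitted log2 change, M1 minus M0, of each gene on the log2(TPM + 1) scale with its 95% confidence interval; circles are on the TPM scale and squares after median-of-ratios rescaling. Ung is farthest left at -2.56 and -2.28, Atm farthest right at 0.52 and 0.85, and of the nucleotide excision repair genes Xpc lies farthest from 0, at -0.88 and -0.57.

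A wider list of 103 other repair and checkpoint genes, all of them tested, had smaller median changes than the 43. Of these, 79 fell and 8 rose on the TPM scale (76.7% and 7.77%), and 46 were lower and 31 higher after rescaling, with median log2 changes of -0.40 and -0.08. Large falls were those of Dna2, a nuclease of end resection (15.0 ± 0.828 to 4.83 ± 0.203 TPM), Ube2t, the conjugating enzyme for FANCD2 (33.0 ± 0.607 to 12.0 ± 0.378 TPM), and Etaa1, another activator of ATR (13.1 ± 1.06 to 4.93 ± 0.11 TPM). Among genes with at least 5 TPM in the higher group, the largest rises were those of Zswim7, a recombination factor (13.7 ± 1.14 to 24.4 ± 1.24 TPM), the helicase Wrn (7.73, 8.22 and 8.05 TPM to 12.0, 11.5 and 13.8 TPM), Rad52 (4.42 ± 0.276 to 6.42 ± 1.03 TPM) and Dclre1c, which encodes the end joining nuclease Artemis (7.31 ± 0.752 to 9.16 ± 1.00 TPM). Without M0 replicate 3 the number that rose was 5. By route, all 4 other mismatch repair genes and 11 of 13 other Fanconi genes fell, and after rescaling 3 and 9 were lower. Of 22 other homologous recombination genes 17 fell and 5 rose on TPM (77.3% and 22.7%). After rescaling 9 were lower and 8 higher (40.9% and 36.4%), with a median of -0.04 against -0.73 for the 10 among the 43. Of 7 other end joining genes 3 fell and 1 rose on TPM, and after rescaling 2 were lower and 4 higher. Of 15 other nucleotide excision repair genes 9 fell (60.0%) and none rose on TPM, and after rescaling 2 were lower and 7 higher (13.3% and 46.7%). Over all tested genes 61.5% fell and 18.7% rose on TPM, and after rescaling 35.4% were lower and 38.1% higher.

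Genes of proliferating cells moved with the repair genes. All 24 proliferation markers fell on the TPM scale, and after rescaling 21 were lower (87.5%) and none higher, with medians of -0.95 and -0.60. Of all tested genes 61.5% fell on the TPM scale, and after rescaling 35.4% were lower and 38.1% higher. Their summed level was 2839 to 2975 TPM in the M0 samples and 1629 to 1732 TPM in the M1 samples. E2f1, a transcription factor of the G1/S step, fell from 42.5 ± 2.04 to 10.6 ± 0.756 TPM, and Ccne1, a cyclin that drives entry into DNA replication, fell from 27.2 ± 0.919 to 5.93 ± 0.784 TPM. Top2a, the DNA topoisomerase of dividing cells, had 242 ± 16.3 and 198 ± 10.8 TPM and no call after rescaling. The part of these changes in those of the repair genes was not tested.

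A list of p53, the transcription factor that the damage kinases activate, and its targets changed in both directions. Of its 15 tested genes, which include Trp53 itself, 5 rose and 8 fell on the TPM scale. That is 33.3% and 53.3%, against 18.7% and 61.5% of all tested genes. After rescaling 7 were higher and 6 lower, where 38.1% and 35.4% of all tested genes were. Cdkn1a, which encodes the cell cycle inhibitor p21, rose from 89.3 ± 0.895 to 182 ± 7.87 TPM, and Mdm2, which encodes the ligase that degrades p53, rose from 35.4 ± 2.75 to 113 ± 7.88 TPM. Phlda3, an inhibitor of AKT signalling, fell from between 19.2 and 22.9 TPM to between 3.13 and 3.77 TPM, and Sesn1, a stress-responsive regulator of mTORC1, from 18.7 ± 0.753 to 3.53 ± 0.366 TPM. Trp53 had 119 ± 1.10 and 129 ± 8.86 TPM with no call on TPM (adjusted p = 0.060) and was called higher after rescaling (0.48).

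**Figure D3:**
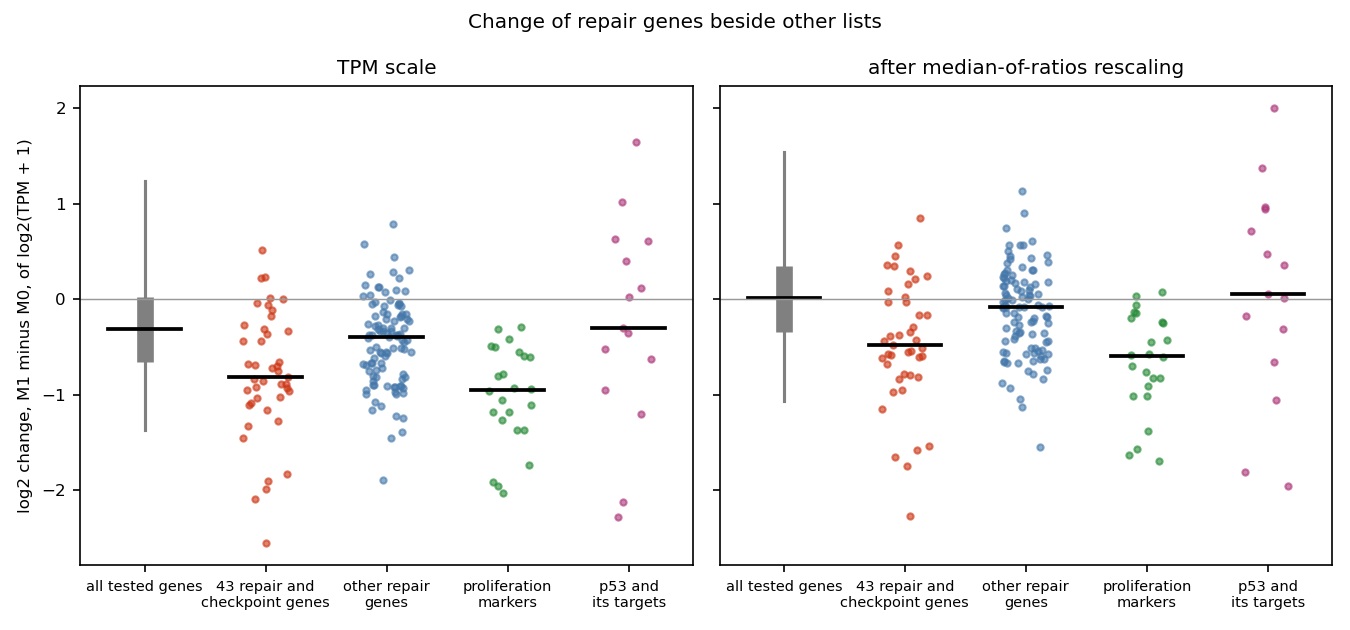
Log2 change, M1 minus M0, of each tested gene in 4 lists on the TPM scale and after rescaling, with the median as a black line; for all tested genes the grey bars span the 5th to 95th and the 25th to 75th percentiles. The median of the 43 genes lies at -0.82 and -0.48, between those of the proliferation markers (-0.95 and -0.60) and of the other repair genes (-0.40 and -0.08).

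With so many of the genes lower together, the DNA around their start sites was searched for letters bound by cell cycle and inflammatory factors. RefSeq windows of GRCm38.p6, from 250 bases before to 50 after a start, were matched by symbol for 34 of the 43, and 31 of these lay at the start of the deposited transcript. The E2F letters TTTCCCGC, searched on both strands, were in 5 of the 34 windows (14.7%), those of Msh6, Chek2, Brca2, Bard1 and Xrcc6, and in 2.36% of the windows of 8806 tested genes. All 5 are among the 22 windows of genes lower on both scales (22.7%), and none is among the other 12. The difference between these groups of windows was not tested. A second E2F form, TTTGGCGC, was in 1 window (2.94% against 1.14%), that of Msh3. Each site is shown with 10 bases on either side, on the strand of its gene and with the matched letters in capitals, so that the shared core and its unlike flanks can be seen. The first 5 show TTTCCCGC or its reverse complement.
Msh6: tcctcccgacTTTCCCGCcagcggcggc
Chek2: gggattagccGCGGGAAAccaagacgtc
Brca2: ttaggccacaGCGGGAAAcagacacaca
Bard1: cgccgctcagTTTCCCGCtcaggaagtt
Xrcc6: gggggtggaaGCGGGAAAtgcgagtggg
Msh3: tgccgtcaagTTTGGCGCgaaatcgcag

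The sites lie at chr17:87975055-87975082 for Msh6, chr5:110839821-110839848 for Chek2, chr5:150522443-150522470 for Brca2, chr1:71103164-71103191 for Bard1, chr15:82016313-82016340 for Xrcc6 and chr13:92355188-92355215 for Msh3, with Bard1 and Msh3 on the minus strand and the rest on the plus strand. CCAAT, the box bound by NF-Y, was in 21 windows (61.8%, against 39.2% of tested genes). The cell cycle homology letters TTTGAA were in 1 (2.94% against 12.0%). Letters of interferon-responsive elements were also searched. The core of the interferon-stimulated response element, GAAA followed by any 2 bases and GAAA, was in 3 windows (8.82% against 3.54%), those of Chek1, Brca2 and Xrcc1, and TTCNNNGAA, the gamma-activated site, was in 1 (2.94% against 6.85%). Neither was in the window of Atm or of Fancc. All 3 windows with the response element core were also among the 22 of genes lower on both scales (13.6%). So were the single TTTGAA and TTCNNNGAA windows, while the TTTGGCGC window of Msh3 was among the other 12. CCAAT was in 15 of the 22 (68.2%) and 6 of the other 12 (50.0%). Such splits were not tested. These matches describe letters and do not show binding.

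The whole windows are shown for the fallen members with the largest changes, Ung and Msh6, and for the risen members with the largest changes that have a window, Atm and Fancc. Capitals mark the searched letters on either strand. That of Ung holds none of them, and it belongs to a start 721 bases upstream of the deposited transcript. Msh6 has the E2F letters at 16 and an inverted CCAAT box at -34, counted from the start, while Atm and Fancc have an inverted CCAAT box alone, at -165 and -242. The windows are chr5:114130185-114130484 (plus strand), chr17:87974800-87975099 (plus strand), chr9:53536622-53536921 (minus strand) and chr13:63431696-63431995 (minus strand), in that order.
Ung: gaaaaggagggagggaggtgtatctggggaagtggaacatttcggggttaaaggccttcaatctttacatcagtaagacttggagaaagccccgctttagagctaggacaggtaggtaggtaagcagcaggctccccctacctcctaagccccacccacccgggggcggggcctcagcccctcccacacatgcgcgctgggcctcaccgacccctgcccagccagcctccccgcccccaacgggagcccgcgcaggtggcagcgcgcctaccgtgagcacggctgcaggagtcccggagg
Msh6: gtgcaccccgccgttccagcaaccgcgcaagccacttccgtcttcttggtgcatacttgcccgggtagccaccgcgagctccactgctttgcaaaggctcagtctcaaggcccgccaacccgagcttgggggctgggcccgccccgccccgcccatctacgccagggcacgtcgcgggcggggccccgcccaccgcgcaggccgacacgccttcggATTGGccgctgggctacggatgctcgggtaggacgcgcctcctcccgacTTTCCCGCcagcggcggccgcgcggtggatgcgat
Atm: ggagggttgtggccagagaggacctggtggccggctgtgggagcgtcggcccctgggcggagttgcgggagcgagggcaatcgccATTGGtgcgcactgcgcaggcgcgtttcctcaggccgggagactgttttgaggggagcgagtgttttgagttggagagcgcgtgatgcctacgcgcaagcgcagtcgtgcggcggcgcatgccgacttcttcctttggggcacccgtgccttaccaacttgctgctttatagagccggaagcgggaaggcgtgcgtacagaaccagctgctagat
Fancc: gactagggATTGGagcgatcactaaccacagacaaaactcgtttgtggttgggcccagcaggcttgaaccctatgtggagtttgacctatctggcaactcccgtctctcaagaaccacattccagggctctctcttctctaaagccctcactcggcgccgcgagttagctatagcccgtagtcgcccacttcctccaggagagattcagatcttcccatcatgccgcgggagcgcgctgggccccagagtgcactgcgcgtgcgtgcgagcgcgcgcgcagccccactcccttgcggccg

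Several of these genes start back to back with a neighbour on the other strand. Such a neighbour, starting up to 1000 bases away or overlapping by up to 200, was found for 16 of the 43, and 13 of the neighbours were tested. Of the 13, 11 fell and none rose on the TPM scale, where 61.5% of all tested genes fell and 18.7% rose. After rescaling 7 were lower and 2 higher, where 35.4% and 38.1% of all tested genes were. In 10 of the 13 pairs the repair gene had the more negative log2 change. Atm and Npat, a histone gene activator, have starts 376 bases apart, and Npat fell from 7.91 ± 0.569 to 5.22 ± 0.359 TPM (log2 change -0.52, SE 0.08, adjusted p = 6.1e-05, and -0.20 after rescaling with adjusted p = 0.023) where Atm rose. Across this shared stretch of DNA the pair of transcripts changed in opposite directions on both scales. Brca1 and Nbr1, an autophagy receptor, have starts 699 bases apart and both fell, with log2 changes of -1.90 and -0.97. Prkdc and Mcm4, a subunit of the replicative helicase, have starts 466 bases apart and fell by 0.70 and 1.11 on the log2(TPM + 1) scale. In mean TPM they fell 1.95-fold and 2.21-fold. The log2(TPM + 1) scale understates the changes of low genes, which affects comparisons within pairs of unlike level. The differences within pairs were not tested.

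**Figure D4:**
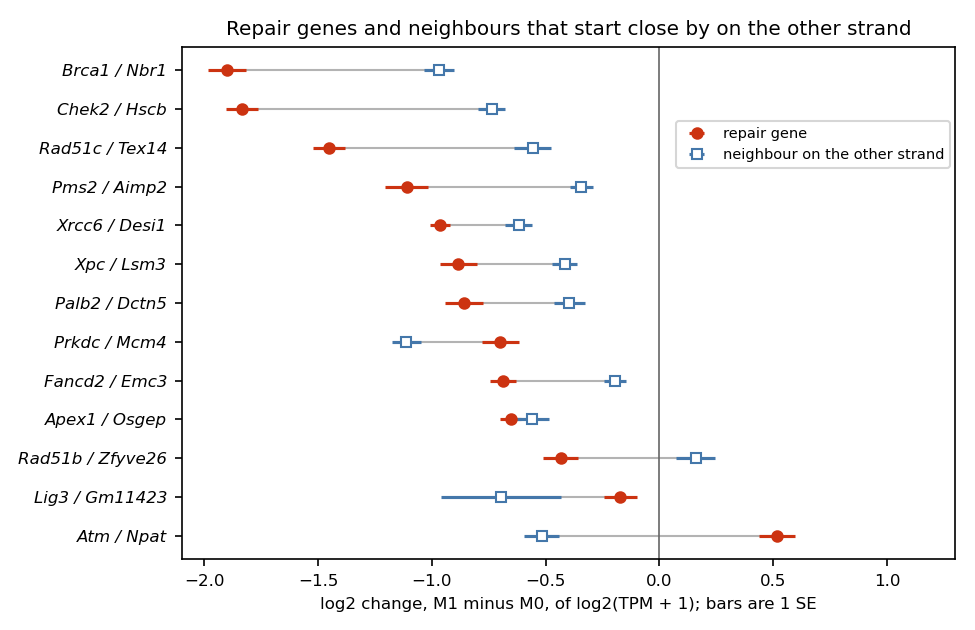
Log2 change, M1 minus M0, of 13 repair genes (filled circles) and of the gene that starts close by on the other strand (open squares), on the log2(TPM + 1) scale; bars are 1 SE. Atm at 0.52 and Npat at -0.52 lie on opposite sides of 0, and for Prkdc, Lig3 and Atm the neighbour is the lower of the pair.

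Some of these values can hold reads of another gene, since the sources used here do not say whether counting used strand. In the GENCODE M21 annotation of GRCm38, 16 of the 43 share 34 to 1826 exonic bases with a protein-coding gene on the opposite strand. Of the 28 genes lower on both scales, 20 have no such overlap on the opposite strand. Pms2, counted among these 20, shares 394 and 85 bases with coding genes on its own strand. The largest overlap is that of Lig3 with Rffl, whose mean level was 8.79 TPM in M0 against 20.0 TPM in M1. Rad54l shares 1184 bases with Lrrc41 (20.0 and 23.6 TPM), Ddb2 shares 652 with Acp2 (16.9 and 26.0 TPM), and Fancc shares 1373 with an antisense transcript and 185 with a coding gene. Ogg1, which fell, shares 232 bases with the more abundant Camk1, which was also lower in M1 (141 and 74.1 TPM). Fanci, which also fell, shares 921 bases with Polg (14.9 and 9.98 TPM), and Apex1 shares 877 with Pip4p1 (31.2 and 25.7 TPM). Fanca shares 920 with Zfp276 (6.4 and 6.2 TPM). The part of such neighbours in the values of these and the other overlapping genes was not tested.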

How the data were processed

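Poly(A) RNA from 3 M0 and 3 M1 samples was sequenced, per the labels' protocols. Per the submitters' processing notes, the tools were HOMER 4.11.1, STAR 2.7.5a, DESeq2 and bcl2fastq and the build was mm10, with no role given for any. Per the file headers, the authors deposited TPM for each gene in each sample. They also deposited a table of log2 values (transform not stated), a log2 fold change of M1 against M0, and its p-value and adjusted p-value.

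In each library, multiplying TPM by transcript length gave multiples of a fixed step that were whole within 0.1 for 99.8% to 99.98% of values above 0, which gave the reads quoted; these cover counting error only. The 11297 genes that reached 1 TPM in at least 3 libraries were fitted with limma 3.58.1 (trend, robust; R 4.3.3) on log2(TPM + 1) with group as the only term. P-values were Benjamini-Hochberg adjusted over all tested genes and called under 0.05; log2 changes on this scale understate those of low genes. With 3 against 3 an exact permutation test cannot go below p = 0.10. Samples of a group differed beyond counting noise (chi-square from 1.58 to 8.33 per degree of freedom) and were all kept as separate. On simulated data with 200 changed genes in each of 10 draws of 11200 to 11241 tested genes, 93.2% of 1.5-fold, 96.8% of 2-fold and 98.0% of 4-fold changes were recovered, and 6.81% of calls were false. Signs were random and the typical gene was not shifted, whereas 80.2% of tested genes were called in the data. The simulated rates therefore do not give the share of false calls among those reported here. Alternatives were another scaling, pseudocount or filter, a replicate block, each sample left out and the authors' values.

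The genes and lists were chosen with earlier results of these data known. Values of every sample are printed for the 6 largest called changes in each direction and for the smallest p in each repair route. Of the other repair genes the 4 largest called changes in each direction at 5 TPM or more are named, except 1 that is not reported here. The E2F sites, the neighbouring starts and the other genes named from the lists were chosen after values had been seen.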

Additional observations from a re-analysis of the deposited data

How the results depend on the processing

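Of the 43 repair genes, 28 were called lower on the TPM scale, after rescaling and in the authors' deposited table, and without any single sample on both scales. Scaling had the largest effect. Median-of-ratios scaling gave 8 genes higher and 28 lower in place of 3 and 35, the authors' log2 values 8 and 28, and the authors' deposited calls 6 and 28. Over all tested genes these settings gave 4305, 4152 and 3836 higher and 4002, 3865 and 3464 lower, in place of 2111 and 6944. For the other repair genes they gave 31, 29 and 23 higher and 46, 47 and 43 lower, in place of 8 and 79. The sign turned for Atr (0.30, 0.31 and 0.31), Lig4 (0.24, 0.27 and 0.29), Lig3 (0.16, 0.17 and 0.17), Ddb1 (0.092, 0.088 and 0.090), Ercc1 (0.21, 0.20 and 0.24) and Ercc2 (0.024, 0.022 and 0.023). The first of these settings differs from TPM by 1 factor per library.

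Leaving out each sample gave 2 to 3 genes higher and 34 to 35 lower on TPM. The other repair genes that rose numbered 5 to 9. Uncalled changes crossed 0 for Ercc3 (-0.044 to 0.069) and Lig4 (-0.11 to 0.022). Together with rescaling, chosen after seeing the data, leaving out a sample gave 6 to 8 higher. Among the 43, a pseudocount of 0.1 changed no call, testing without a filter lost the call of Lig3 alone, and a filter of 5 TPM left 2 higher and 31 lower of the 37 genes it tested. With the replicate number as a block the counts were again 3 higher and 35 lower, and with rescaling 7 and 28. Same-numbered samples did not deviate together (r of 0.07, -0.08 and 0.04), and not every sample correlated best with its own number. Whether the numbers pair the samples stays unsettled, since such correlations cannot exclude a shared preparation. Depth limits Ung in M1 and Fancc most.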
